A study of Mus musculus with 18 samples.

Results

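Kidney cortex RNA of mice labelled Klf6PTKO was compared with that of Klf6fl/fl mice at the end of 3 weeks of aristolochic acid I (AAI). The comparison rests on 6 of the 18 libraries of the study, 3 of each genotype, chosen by their sample titles, and on 14604 tested genes of the 24062 in the table. The strain label is C57Bl/6 for every mouse, with no substrain. Klf6fl/fl (fl/fl below) carries floxed alleles of Klf6, and Klf6PTKO (PTKO below) is the label for loss of Klf6 in the proximal tubule. The Cre driver, the AAI dose, the sex and age of the mice and the week at which the DMSO kidneys were taken are not given in the sources used here. The other 12 libraries are the DMSO vehicle groups and the groups left to remodel for 3 further weeks after AAI, called 6 weeks, again with 3 libraries per genotype. Nothing in the labels says that each library is a separate mouse, so the p-values measure only the spread between libraries of a group, which may be technical.

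AAI is a plant toxin that enters proximal tubule cells through organic anion transporters and forms DNA adducts after its reduction inside the cell. The proximal tubule reabsorbs glucose, phosphate, amino acids and filtered protein, secretes organic anions and drugs, and fuels this work mainly by oxidizing fatty acids. Its first parts, S1 and S2, carry most of the reabsorption, and the straight S3 part lies deeper in the cortex and outer medulla. Injured tubules lose these functions and release chemokines that draw in macrophages, and fibroblasts then lay down matrix. Klf6 belongs to the Krüppel-like transcription factors, which bind DNA by zinc fingers, and is induced early after cell injury.

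Total RNA was sequenced after ribosomal depletion, and values are counts scaled to 1000000 reads per library (CPM) as deposited. The 6 compared libraries hold 21325952 to 26792783 reads in fl/fl and 24685033 to 27213219 reads in PTKO. Differences between genotypes are PTKO minus fl/fl on the log2(CPM + 1) scale, as limma estimates ± SE with n = 3 libraries per group, and a gene counts as changed at a Benjamini-Hochberg adjusted p under 0.05 over all genes tested. Values of single libraries are given in the order of the replicate numbers 1, 2 and 3, and levels under DMSO are means ± SD of 3 libraries. CPM was not rescaled between treatments. Median-of-ratios factors of CPM were 0.80 to 0.84 in the DMSO libraries and 1.08 to 1.15 in the 3-week libraries. That scaling would thus lower levels after AAI relative to those under DMSO. Klf6 itself (chromosome 13, 5861482 to 5870394, plus strand in mm10) was at 308, 273 and 256 CPM in fl/fl against 309.6, 279.6 and 229 CPM in PTKO, and the genotypes overlapped. Its difference was -0.04 ± 0.18 (95% interval -0.41 to 0.33, exact permutation p = 1, where 0.1 is the smallest that 3 libraries against 3 allow). Whole cortex holds Klf6 RNA of all its cell types and no exon was counted apart, so this does not check the genotype label.

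The 6 libraries did not lie equally far apart. On the first principal component, which held 65.4% of their variance, fl/fl lay at -13.7, -23.5 and -38.9 and PTKO at 7.9, 40.3 and 27.8. Among pairs of 1 fl/fl and 1 PTKO library, the replicate 1 libraries were thus the closest to each other on this component, and fl/fl replicate 3 and PTKO replicate 2 the farthest apart. Correlations of log2 values across genes ran from 0.9844 to 0.9902 within a genotype and from 0.9474 to 0.9829 between genotypes. PTKO replicate 1 also differed from the other PTKO libraries in T and NK cell and antigen presentation genes, with values given beside those lists.

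At the end of AAI, 908 of the 14604 genes were higher in PTKO (6.22% of genes tested) and 1169 were lower (8.0%). The median difference of all tested genes was -0.04. A difference of at least 1 on the log2 scale was reached by 191 of the higher and 279 of the lower genes. Counting only whether the 3 libraries of each genotype overlapped, 2111 genes were higher without overlap (14.5%) and 2817 lower (19.3%), and 857 and 1099 of the called genes were among them. edgeR on the recovered reads called 1128 higher and 836 lower, so that 57.4% of its calls were higher against 43.7% here, and a fit on the 6 compared libraries alone called 621 higher and 790 lower. Of the 2077 genes called here, edgeR called 1713 in the same direction and the fit on the 6 libraries 1179. The number of calls depended on single libraries. Without fl/fl replicate 1 there were 1087 higher and 1430 lower genes, without replicate 2 there were 520 and 485, and without replicate 3 there were 208 and 216. Without PTKO replicate 1 there were 935 higher and 1442 lower, without replicate 2 there were 177 and 183, and without replicate 3 there were 407 and 406. Whichever library was left out, 320 genes stayed called, 165 higher and 155 lower. These are the genes called in all 6 leave-outs below.

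To ask which side of the AAI response the genotype difference fell on, AAI-responsive genes were chosen in the 12 other libraries, by the difference between both 6-week groups and both DMSO groups. Of 514 genes that were lower there after AAI by at least 1 on the log2 scale, 230 (44.7%) were higher in PTKO at 3 weeks and 1 was lower, with a median difference of 0.64. Of 3029 genes that were higher there after AAI by as much, 692 (22.8%) were lower in PTKO and 30 were higher, with a median of -0.35. Among the 11061 genes that were neither, 648 (5.86%) were higher and 476 (4.30%) lower, with a median of -0.01. Genes lowered by AAI were thus mostly on the higher side in PTKO, and genes raised by AAI mostly on the lower side. When fl/fl replicates 1, 2 and 3 and then PTKO replicates 1, 2 and 3 were left out singly, the fits gave 263, 141, 56, 251, 54 and 111 lowered genes called higher. The raised genes called lower numbered 820, 299, 131, 852, 112 and 268 in the same order. The medians ran from 0.52 to 0.78 for the lowered genes and from -0.44 to -0.29 for the raised genes over these 6 fits.

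**Figure D1:**
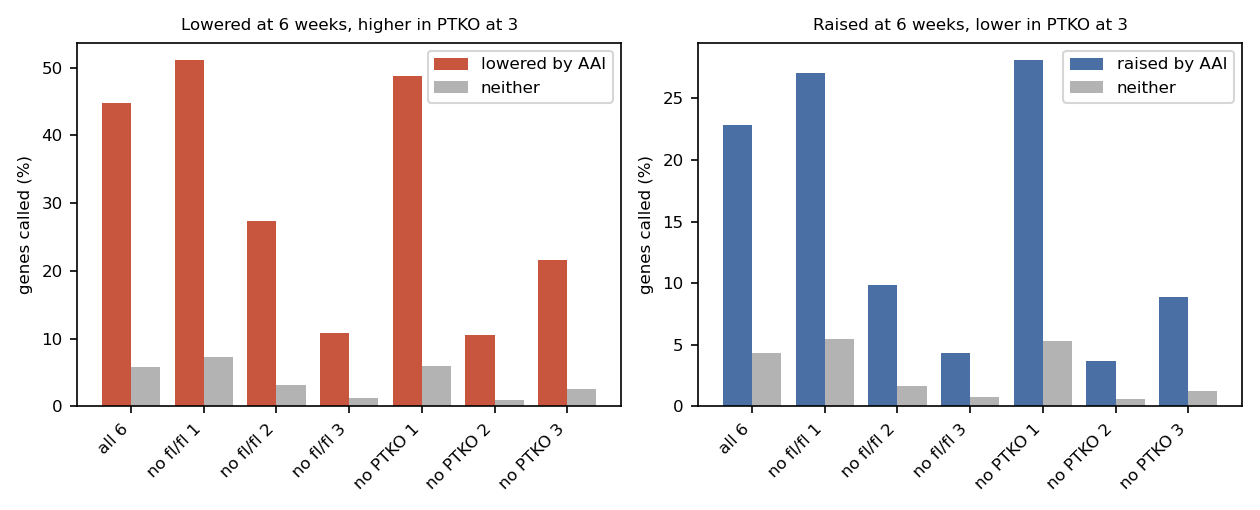
Share of genes called at 3 weeks (percent, bars from 0) among genes that AAI lowered or raised in the other 12 libraries and among those that were neither (grey), with all 6 compared libraries and with each left out. With all 6, 44.7% of lowered genes were higher in PTKO and 22.8% of raised genes were lower, and in every fit the coloured bar stands above the grey one.

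The plot of list medians sets the AAI change of each gene list in fl/fl beside that in PTKO. The median change of all tested genes was 0.45 in fl/fl and 0.42 in PTKO, in CPM without rescaling between treatments. In the lists of the proximal tubule and its metabolism, other than glycolysis, the median fall was smaller in PTKO. The glycolysis median was 0.33 in fl/fl and 0.22 in PTKO, below that of all genes, so it is not read as a rise. In the myeloid and matrix lists the median rise was smaller. The median change of the 7 neutrophil markers was -0.04 in PTKO, but their summed level there was 43.3 to 64.9 CPM after AAI against 4.38 to 12.9 CPM under DMSO, with every AAI library above every DMSO library. PTKO neutrophil markers also had a median 0.58 above fl/fl under DMSO. The p53, interferon and antigen presentation lists had nearly the same median in both genotypes. These medians share the 3-week libraries with the genotype difference and are not a second test of it.

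**Figure D2:**
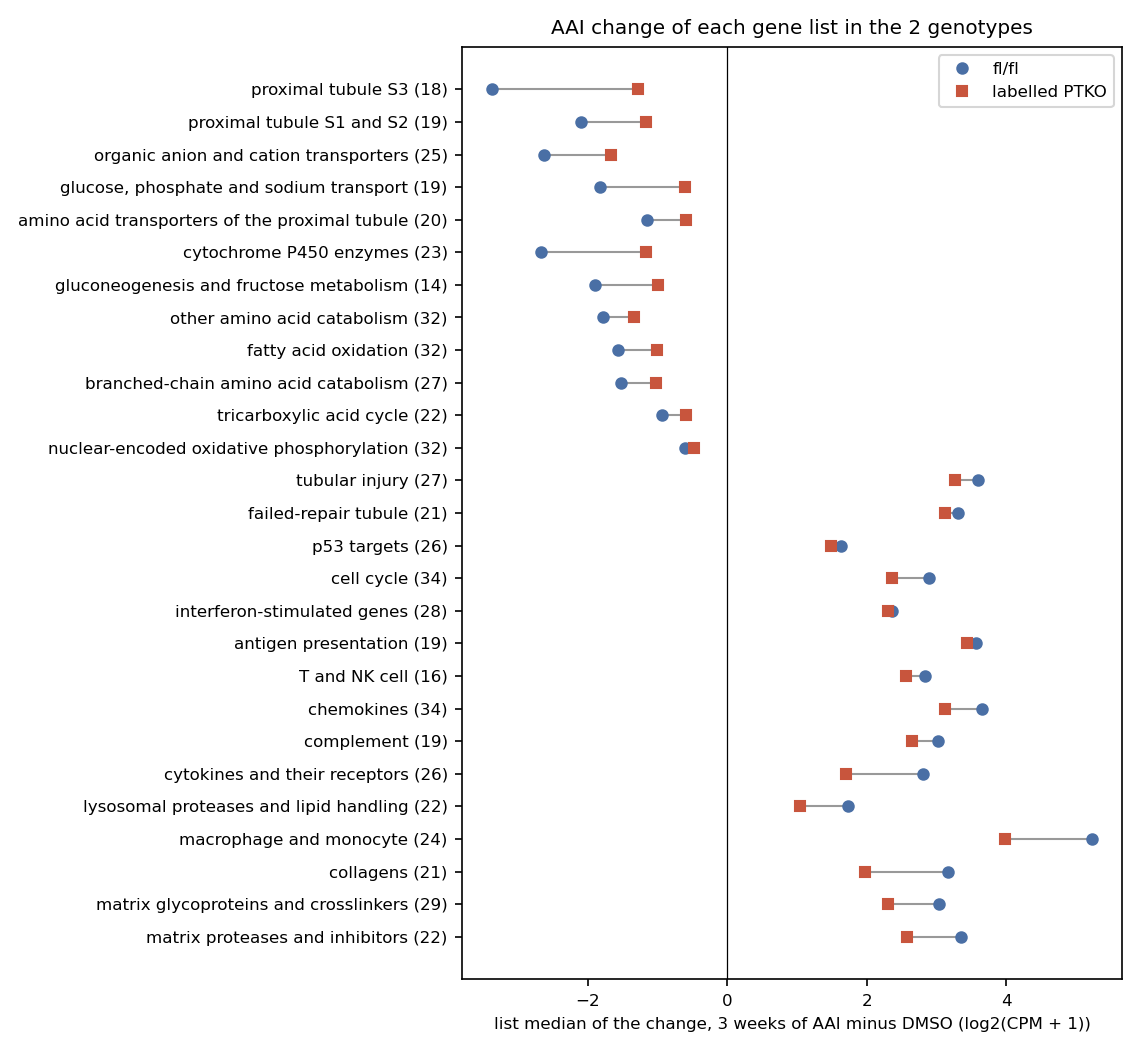
Median change from DMSO to 3 weeks of AAI over the tested genes of each list (log2(CPM + 1), number of genes in brackets), in fl/fl (circles) and PTKO (squares). The S3 list had a median of -3.37 in fl/fl and -1.28 in PTKO, the macrophage list 5.23 and 3.98, and the p53 targets 1.63 and 1.49.

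Many genes that mark the proximal tubule or carry its transport were higher in PTKO at the end of AAI. Of 18 tested S3 markers 12 were higher and 0 lower, with a median difference of 1.86, the largest median of the lists described. Of 19 S1 and S2 markers 12 were higher and 0 lower, with a median of 0.86. In the fit on the 6 libraries alone 4 of the S1 and S2 markers passed and 12 of the S3 markers. Of the 12 S1 and S2 calls, 11, 3, 0, 11, 0 and 0 stayed when fl/fl replicates 1, 2 and 3 and PTKO replicates 1, 2 and 3 were left out singly, so none stayed without fl/fl replicate 3, PTKO replicate 2 or PTKO replicate 3. Of the 12 S3 calls, 6, 9, 5, 11, 3 and 8 stayed in the same order. The mean log2 level of the S3 markers was 4.21, 5.09 and 4.53 in fl/fl and 6.15, 6.91 and 6.03 in PTKO, and that of the S1 and S2 markers 8.31, 7.90 and 7.53 in fl/fl and 8.52, 9.08 and 9.17 in PTKO. The genotypes did not overlap in either, and fl/fl replicate 3 was the lowest library for S1 and S2 while PTKO replicate 1 was the lowest of its group. Under DMSO the medians were -0.11 and 0.09. In bulk cortex, fewer cells of a type and less RNA per cell cannot be told apart.

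Among the S3 genes, Slc5a10, a sodium-coupled sugar transporter, was at 16.6, 39.5 and 29.9 CPM in fl/fl against 89.7, 178 and 181 CPM in PTKO (2.35 ± 0.30, adjusted p = 0.000777). Every PTKO library lay above every fl/fl library. In CPM, PTKO replicates 2 and 3 were at or near the level under DMSO, which was 150.1 ± 9.43 CPM in fl/fl and 197 ± 38.02 CPM in PTKO. Median-of-ratios scaling would place them lower against DMSO. Slc5a8, a sodium-coupled monocarboxylate transporter (chromosome 10, 88885992 to 88929515, plus strand), was at 9.14, 37.7 and 14.5 CPM in fl/fl against 99.7, 184 and 114 CPM in PTKO (2.82 ± 0.42, adjusted p = 0.001698). Cyp4a12a, an androgen-dependent fatty acid hydroxylase whose reads are hard to tell from those of its near copies, was at 8.51, 4.92 and 6.4997 CPM in fl/fl against 90.6, 74.6 and 61.3 CPM in PTKO (3.33 ± 0.54, adjusted p = 0.00256). For Cyp4a12a this exceeded the difference under DMSO by 1.88, which did not pass (limma interaction adjusted p = 0.209). PTKO was thus also the higher genotype under DMSO, where 0 S3 markers were called. These 3 S3 genes were the ones called in all 6 leave-outs. Slc7a13 and Slc22a7 had differences as large with fewer calls held, and in both genotypes replicate 2 was their highest library. Slc7a13, the aspartate and glutamate transporter of S3, was at 1.903, 23.1 and 6.98 CPM in fl/fl against 55.6, 114 and 34.2 CPM in PTKO (2.89 ± 0.79, adjusted p = 0.0251), and its call held in 3 of 6 (adjusted p = 0.1299 without PTKO replicate 2). The organic anion transporter Slc22a7 was at 1.16, 4.27 and 2.705 CPM in fl/fl against 19.8, 81.9 and 15.6 CPM in PTKO (3.14 ± 0.96, adjusted p = 0.0402) and was called in 1 of 6 (adjusted p = 0.194 without PTKO replicate 2).

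The S1 and S2 genes had a smaller median difference, though Kap, an androgen-regulated kidney protein listed with them, had a large one. Kap was at 68.5, 436 and 180.2 CPM in fl/fl against 979, 2852 and 787 CPM in PTKO (2.88 ± 0.85, adjusted p = 0.0346), again with replicate 2 highest in both genotypes, and its call held in 2 of 6 leave-outs (adjusted p = 0.169 without PTKO replicate 2). Slc34a1, the sodium-phosphate cotransporter that reclaims most filtered phosphate, was at 2277, 1436 and 1376 CPM in fl/fl against 2469, 3188 and 3329 CPM in PTKO (0.85 ± 0.24, adjusted p = 0.0315), against 8537 ± 625 CPM in fl/fl and 9017 ± 487 CPM in PTKO under DMSO. Its lowest PTKO library stood just above its highest fl/fl library, replicate 1 in each case, and the call held in 2 of 6 leave-outs (adjusted p = 0.156 without fl/fl replicate 3). Slc5a2, the glucose transporter SGLT2, was at 274, 202 and 189 CPM in fl/fl against 313, 335 and 312 CPM in PTKO (0.55 ± 0.16, adjusted p = 0.0321), with the call held in 2 of 6 (adjusted p = 0.164 without fl/fl replicate 3). Pck1, the rate-limiting enzyme of gluconeogenesis, was at 463, 186 and 209.6 CPM in fl/fl against 403, 2110.4 and 4282 CPM in PTKO (2.55 ± 0.64, adjusted p = 0.01797). Here the groups overlapped: PTKO replicate 1 lay below fl/fl replicate 1, and the other PTKO libraries were many times higher than any fl/fl library. The Pck1 call held in 2 of 6 leave-outs (adjusted p = 0.0911 without PTKO replicate 2). No S1 or S2 marker was called in all 6.

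**Figure D3:**
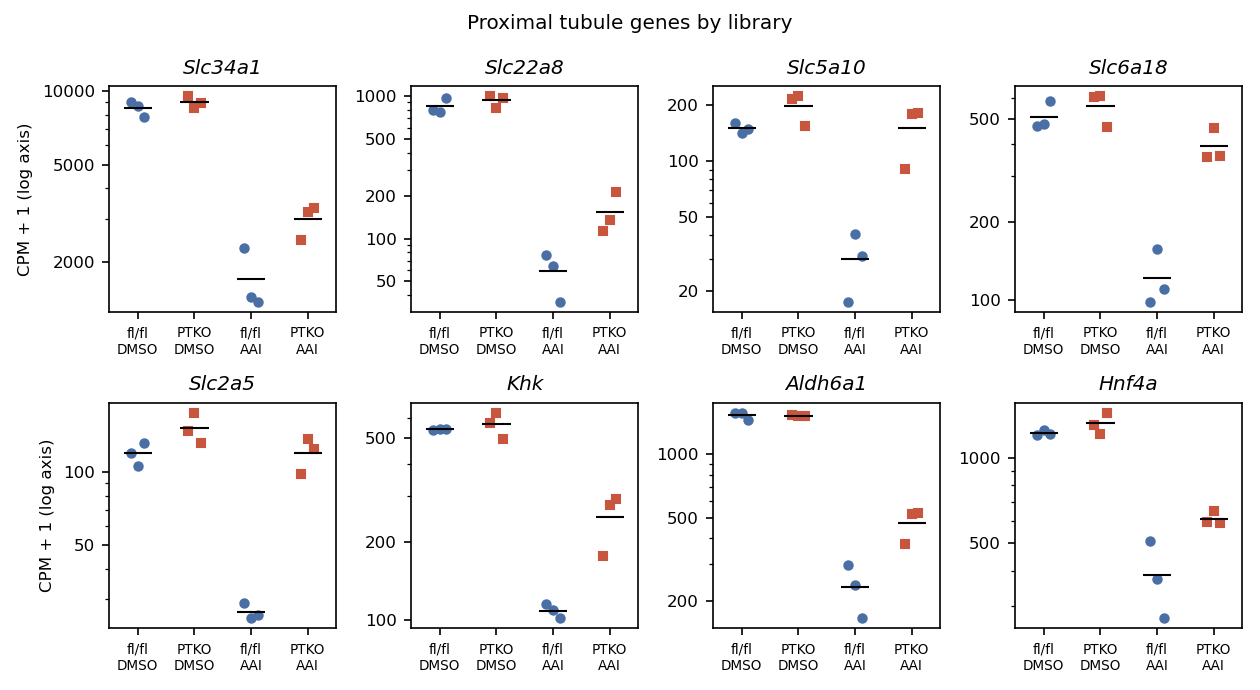
CPM + 1 (log axis, one scale per gene) of 8 proximal tubule genes in each DMSO and each 3-week AAI library of fl/fl (circles) and PTKO (squares), with the group mean as a line. In each panel AAI lowered both genotypes or left PTKO near its DMSO level, in CPM without rescaling between treatments. All 3 PTKO libraries lie above all 3 fl/fl libraries after AAI.

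Transporters were ordered by what they carry. Among amino acid transporters 11 of 20 were higher and 0 lower (median 0.71), among those of glucose, phosphate and sodium 13 of 19 and 0 (0.88), and among organic anion and cation transporters 12 of 25 and 0 (0.94). The 6 libraries alone gave 7, 8 and 13 higher genes in these lists. Slc6a18, which takes up glycine and other neutral amino acids, was at 97.8, 156 and 109.7 CPM in fl/fl against 354, 458 and 359.8 CPM in PTKO (1.70 ± 0.23, adjusted p = 0.001501). Slc1a1, the acidic amino acid transporter EAAT3, was at 135, 115 and 89.9 CPM in fl/fl against 204, 262 and 211 CPM in PTKO (0.998 ± 0.19, adjusted p = 0.00591). Slc6a13, a GABA and taurine transporter, was at 16.05, 24.1 and 17.1 CPM in fl/fl against 55.3, 63.4 and 38.97 CPM in PTKO (1.41 ± 0.28, adjusted p = 0.00658). PTKO lay above fl/fl in every library of these 3 genes, all of them called in all 6 leave-outs. The Slc6a13 difference exceeded that under DMSO by 0.56, which did not pass (limma interaction adjusted p = 0.47). The estimate under DMSO was thus also in the higher direction, but Slc6a13 was not called there.

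Among the sugar and sodium-coupled carriers, Slc5a1, the glucose transporter SGLT1 of the later proximal tubule, was at 36.7, 61.3 and 39.8 CPM in fl/fl against 89.6, 122 and 92.2 CPM in PTKO (1.15 ± 0.19, adjusted p = 0.00311). Slc13a2, the citrate and dicarboxylate transporter, was at 9.74, 13.4 and 15.5 CPM in fl/fl against 29.8, 42.3 and 57.5 CPM in PTKO (1.64 ± 0.24, adjusted p = 0.00158). Slc2a5, the fructose transporter GLUT5 (chromosome 4, 150119283 to 150144169, plus strand), was singled out after its values were seen, and was at 27.9, 24.01 and 24.8 CPM in fl/fl against 96.8, 136 and 123 CPM in PTKO (2.16 ± 0.17, adjusted p = 4.66e-06). In CPM, its 3 PTKO libraries stood near the DMSO levels of 119 ± 13.1 CPM in fl/fl and 151 ± 21.98 CPM in PTKO, and its fl/fl libraries far below them. Median-of-ratios scaling would place the libraries of both genotypes lower against DMSO. All 3 were called in all 6 leave-outs. Of the drug and anion carriers, Slc22a4, a carnitine and ergothioneine transporter, was at 18.5, 16.98 and 19.3 CPM in fl/fl against 33.1, 35.8 and 39.2 CPM in PTKO (0.94 ± 0.16, adjusted p = 0.00366), and Abcc2, the apical export pump MRP2, at 197, 141 and 128 CPM in fl/fl against 224, 296 and 382 CPM in PTKO (0.94 ± 0.18, adjusted p = 0.00611). Both were called in all 6. Slc22a8, the basolateral organic anion transporter OAT3, was at 75.7, 62.9 and 35.2 CPM in fl/fl against 112, 133 and 209.8 CPM in PTKO (1.39 ± 0.32, adjusted p = 0.01299), with the call held in 3 of 6 leave-outs (adjusted p = 0.0831 without fl/fl replicate 3). Its PTKO libraries were above the fl/fl libraries but below those under DMSO, at 843 ± 103 CPM in fl/fl and 928 ± 92.9 CPM in PTKO.

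Of 16 endocytosis genes of the megalin and cubilin route 2 were higher and 1 was lower, where 6.22% of all genes were higher and 8.0% lower. The list median was -0.005, near that of all genes, and its sign flipped under median-of-ratios scaling. Lrp2, the receptor megalin, was at 518, 416 and 334 CPM in fl/fl against 551, 631 and 939 CPM in PTKO, a difference of 0.73 ± 0.29 that did not pass (adjusted p = 0.102). Cubn, its partner cubilin, was at 164, 151 and 108 CPM in fl/fl against 208, 281 and 372 CPM in PTKO (1.003 ± 0.26, adjusted p = 0.0213), a call held in 3 of 6 leave-outs (adjusted p = 0.121 without fl/fl replicate 3). Myo6, the myosin that moves endocytic vesicles, was at 304, 274 and 217 CPM in fl/fl against 364, 398 and 408 CPM in PTKO (0.57 ± 0.11, adjusted p = 0.00591) and was called in all 6. Over all 6 lists of identity and transport, 48 of 96 genes were higher and 1 lower. In the fits without fl/fl replicates 1, 2 and 3 and PTKO replicates 1, 2 and 3, each left out alone, 38, 30, 14, 42, 12 and 25 of the 48 stayed called, and the 6 libraries alone gave 38 higher and 3 lower.

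Part of the genes of energy metabolism and amino acid breakdown was also higher in PTKO. In fatty acid oxidation 17 of 32 genes were higher (median 0.51), in branched-chain amino acid catabolism 15 of 27 (0.53), in other amino acid catabolism 20 of 32 (0.77), in gluconeogenesis and fructose use 10 of 14 (0.92) and in the tricarboxylic acid cycle 13 of 22 (0.36). None of these 5 lists had a lower gene. Nuclear-encoded oxidative phosphorylation had 7 of 32 higher and 0 lower, with a median of 0.26. The 6 libraries alone gave 11, 13, 18, 6, 5 and 2 higher genes in these 6 lists in the same order. Of their calls, 1, 3, 7, 5, 1 and 0 stayed without fl/fl replicate 3, and 1, 3, 9, 6, 1 and 0 without PTKO replicate 2. Fatty acid oxidation, the tricarboxylic acid cycle and oxidative phosphorylation thus lost all or all but 1 of their calls without either library. Glycolysis stood apart, with 1 of 15 higher, 1 lower and a median of -0.09. The branched-chain list follows a pathway known to have been taken up in work on this gene, so its count is not independent evidence of a direction.

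In fatty acid oxidation, Acaa1b, the peroxisomal thiolase, was at 29.1, 27.6 and 21.1 CPM in fl/fl against 38.3, 53.5 and 55.7 CPM in PTKO (0.89 ± 0.17, adjusted p = 0.00642), and it was the one gene of its list called in all 6 leave-outs. Acot12, an acetyl-CoA thioesterase, was at 16.3, 11.9 and 11.8 CPM in fl/fl against 22.8, 47.4 and 49.9 CPM in PTKO (1.45 ± 0.31, adjusted p = 0.00912), a call held in 4 of 6 (adjusted p = 0.0594 without PTKO replicate 2). Cpt1a, which commits long-chain fatty acids to mitochondria, was at 486, 359 and 333 CPM in fl/fl against 397, 472 and 513 CPM in PTKO, and its groups overlapped (0.24 ± 0.15, adjusted p = 0.297). Cpt1a thus did not pass while enzymes further along the pathway did, and the difference between these genes was not tested.

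Among the branched-chain enzymes, Aldh6a1, the methylmalonate semialdehyde dehydrogenase of valine breakdown, was at 296, 239 and 165 CPM in fl/fl against 373, 516 and 525 CPM in PTKO (1.03 ± 0.21, adjusted p = 0.00684). Abat, which handles GABA and valine intermediates, was at 158, 140.2 and 107 CPM in fl/fl against 255, 324 and 282 CPM in PTKO (1.09 ± 0.18, adjusted p = 0.002904). All PTKO libraries of both genes lay above all fl/fl libraries, and both were called in all 6 leave-outs. The subunits of the rate-limiting complex, the branched-chain keto acid dehydrogenase, had smaller differences, and the gap between them and the other enzymes was not tested. Bckdha was at 167, 143 and 148 CPM in fl/fl against 174, 200.4 and 210.1 CPM in PTKO (0.35 ± 0.11, adjusted p = 0.0448), a call held in 2 of 6 (adjusted p = 0.1604 without PTKO replicate 2) and not made by edgeR (adjusted p = 0.0528). Bckdhb was at 22.5, 29.6 and 21.5 CPM in fl/fl against 23.2, 24.7 and 22.04 CPM in PTKO, with overlapping groups and a difference of -0.06 ± 0.24 (95% interval -0.56 to 0.45, adjusted p = 0.897). The sign of that difference flipped under quantile normalization.

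In other amino acid catabolism 7 of the 20 higher genes were called in all 6 leave-outs. Bhmt2, which uses S-methylmethionine to remethylate homocysteine, was at 5.2999, 12.3 and 5.85 CPM in fl/fl against 26.2, 40.3 and 38.4 CPM in PTKO (2.09 ± 0.30, adjusted p = 0.00158). Dmgdh, the mitochondrial dimethylglycine dehydrogenase, was at 7.35, 12.5 and 5.496 CPM in fl/fl against 24.2, 40.6 and 33.5 CPM in PTKO (1.88 ± 0.30, adjusted p = 0.00227). Haao, which makes quinolinate on the route from tryptophan to NAD, was at 12.6, 12.5 and 12.5 CPM in fl/fl against 30.7, 62.9 and 63.4 CPM in PTKO (1.91 ± 0.31, adjusted p = 0.00253). In these 3 genes each PTKO library was at least 1 log2 unit above the fl/fl mean, yet still below the DMSO means of 149.9 ± 2.81 CPM in fl/fl and 151 ± 14.7 CPM in PTKO for Bhmt2, 171 ± 13.9 CPM in fl/fl and 169 ± 14.99 CPM in PTKO for Dmgdh and 212 ± 4.37 CPM in fl/fl and 232 ± 8.56 CPM in PTKO for Haao. Aldh4a1, which completes proline breakdown and is listed with the branched-chain enzymes, was at 282, 221 and 230.2 CPM in fl/fl against 365, 532 and 539 CPM in PTKO (0.95 ± 0.15, adjusted p = 0.00205). Cth, the cystathionine gamma-lyase of cysteine synthesis, was at 22.8, 31.6 and 15.7 CPM in fl/fl against 53.6, 85.6 and 69.5 CPM in PTKO (1.56 ± 0.26, adjusted p = 0.002904). Aadat, an aminotransferase of kynurenine and lysine breakdown that is also an S3 marker, was at 24.4, 73.9 and 41.4 CPM in fl/fl against 218, 316 and 93.7 CPM in PTKO (2.12 ± 0.49, adjusted p = 0.0132), a call held in 4 of 6 (adjusted p = 0.0827 without PTKO replicate 2).

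In fructose use, Khk, the ketohexokinase that traps fructose, was at 114, 108 and 101 CPM in fl/fl against 175, 275 and 291 CPM in PTKO (1.16 ± 0.20, adjusted p = 0.00373), and Sord, the sorbitol dehydrogenase that makes fructose, at 236, 178 and 177 CPM in fl/fl against 344, 464 and 451 CPM in PTKO (1.09 ± 0.20, adjusted p = 0.00442). Gpt2, the mitochondrial alanine aminotransferase, was at 75.6, 76.995 and 76.3 CPM in fl/fl against 107, 148 and 147 CPM in PTKO (0.79 ± 0.14, adjusted p = 0.00473). For Gpt2 the fl/fl libraries were, in CPM, close to the DMSO level (73.3 ± 8.301 CPM in fl/fl and 70.4 ± 6.95 CPM in PTKO) and the PTKO libraries were above it. Median-of-ratios scaling would place both lower against DMSO. Khk, Sord and Gpt2 were called in all 6 leave-outs. Ndufa10, a subunit of respiratory complex I, was at 133, 132 and 128 CPM in fl/fl against 161, 188 and 172 CPM in PTKO (0.40 ± 0.09, adjusted p = 0.0109), a call held in 4 of 6 (adjusted p = 0.07202 without PTKO replicate 2). In glycolysis, Pfkm, a phosphofructokinase, was higher (0.36 ± 0.10, adjusted p = 0.0306) and Slc16a3, the lactate exporter MCT4, was lower at 17.99, 19.8 and 26.6 CPM in fl/fl against 11.6, 7.72 and 6.08 CPM in PTKO (-1.27 ± 0.28, adjusted p = 0.00943). They were called in 2 and 4 of 6 leave-outs (adjusted p = 0.134 without PTKO replicate 2, and adjusted p = 0.0629 without fl/fl replicate 3).

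Most called genes of drug and toxin metabolism were higher. Of 23 cytochrome P450 genes 7 were higher and 0 lower (median 0.89), and of 28 conjugation enzymes and NRF2 targets 10 were higher and 1 lower (0.38). Cyp4a10, a fatty acid hydroxylase, was at 16.9, 30.1 and 19.8 CPM in fl/fl against 47.3, 111 and 137 CPM in PTKO (2.003 ± 0.35, adjusted p = 0.00373), although reads of this family can be split between near copies. Nqo1, the quinone reductase that is known to reduce AAI (chromosome 8, 107388225 to 107403206, minus strand), was at 22.1, 24.7 and 19.8 CPM in fl/fl against 42.5, 58.8 and 57.3 CPM in PTKO (1.21 ± 0.18, adjusted p = 0.001702). Its DMSO levels were 65.9 ± 6.69 CPM in fl/fl and 55.4 ± 9.697 CPM in PTKO, so in CPM the fl/fl libraries had fallen below them and the PTKO libraries overlapped them. Median-of-ratios scaling would place the libraries of both genotypes lower against DMSO. Ugt3a1, a glycosyltransferase, was at 6.53, 9.38 and 4.54 CPM in fl/fl against 24.7, 51.96 and 26.8 CPM in PTKO (2.15 ± 0.41, adjusted p = 0.00588). Cyp4a10, Nqo1 and Ugt3a1 were called in all 6 leave-outs. Slc7a11, the cystine importer that NRF2 and ATF4 induce, was the lower gene of the list, at 13.1, 16.9 and 22.5 CPM in fl/fl against 7.88, 2.24 and 3.52 CPM in PTKO (-1.84 ± 0.37, adjusted p = 0.00739), with the call held in 5 of 6 (adjusted p = 0.0531 without PTKO replicate 2).

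Over the 9 metabolic lists 100 of 225 genes were higher and 2 lower. Of the 100, 96, 65, 25, 96, 28 and 53 stayed called without fl/fl replicates 1, 2 and 3 and PTKO replicates 1, 2 and 3 in turn, and the 6 libraries alone gave 77 higher and 4 lower. Levels of the branched-chain list were 6.28, 6.33 and 6.08 in fl/fl and 6.63, 6.89 and 6.69 in PTKO (mean log2 over its genes), and those of the fatty acid oxidation list 6.54, 6.49 and 6.29 in fl/fl and 6.84, 7.25 and 7.10 in PTKO. The genotypes did not overlap in either, and PTKO replicate 1 was the lowest PTKO library in both.

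Of 27 transcription regulators of the proximal tubule 4 were higher and 1 was lower, with a median of 0.24. Over all genes 6.22% were higher and 8.0% lower, so the higher share of the list was above that background. The lower one was Klf2, a Krüppel-like factor of endothelium and leukocytes. Hnf4a, the nuclear receptor that maintains proximal tubule identity, was at 509, 373 and 272 CPM in fl/fl against 592, 647 and 589 CPM in PTKO (0.71 ± 0.19, adjusted p = 0.02498), a call held in 2 of 6 (adjusted p = 0.148 without fl/fl replicate 3). Esrrg, a nuclear receptor of mitochondrial genes, was higher (0.55 ± 0.14, adjusted p = 0.0181), with the call held in 3 of 6 (adjusted p = 0.109 without fl/fl replicate 3).

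Because HNF4 sites are known in many tubule promoters and PU.1 sites in myeloid ones, the promoters of the called genes were searched for short patterns. The windows come from RefSeq (GRCm38.p6) and run from 250 bases before to 50 bases after a start site. They were found for 672 of the 908 higher genes (845 windows), 861 of the 1169 lower genes (1119 windows) and 10960 of the 14604 tested genes (13982 windows). Patterns were read on both strands, N stands for any base, and a window with several patterns was counted under each. The HNF4 pattern CAAAGTCCA was in 1.66% of windows of higher genes (14 windows), 0.626% of lower genes (7) and 0.479% of all tested genes (67). These are few windows and not all independent. Agxt2 and Hsd3b3 entered the 14 through repeated windows, and the 7 include Pilra, Pilrb1 and Pilrb2, all on chromosome 5. The PU.1 pattern GAGGAAGT was in 2.13%, 6.52% and 3.18%, and the AP-1 pattern TGANTCA in 5.8%, 8.4% and 5.55%. For CCACACCC, a CACC box of the kind Krüppel-like factors bind, the shares were 3.55%, 3.84% and 3.79%. HNF4 matches were thus more frequent before higher genes, PU.1 matches before lower genes, and CACC boxes about equally frequent, with no test made of these shares. A match is a description of the letters and not a bound site, and most called genes held none of them.

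The upstream 250 bases of 4 called genes, chosen because they hold a match, are shown 5′ to 3′ on the gene's strand with the matches in capitals. In Slc3a1, a subunit of the cystine transporter (1.01 ± 0.21, adjusted p = 0.00832), the HNF4 match starts 39 bases and an AP-1 match 140 bases before the start site. In Aadat (2.12) an HNF4 match on the other strand starts at 72 bases. In Mmp7, which was lower (-1.68), a PU.1 match starts at 109 and an AP-1 match at 63 bases before the first of its 2 listed starts. In C1qc, a subunit of complement C1q that was lower (-1.33 ± 0.31, adjusted p = 0.0138), the PU.1 match starts at 195 bases. The calls of Slc3a1 and C1qc held in 4 and 3 of 6 leave-outs (adjusted p = 0.0575 without PTKO replicate 2, and adjusted p = 0.0838 without PTKO replicate 2), that of Aadat in 4 (adjusted p = 0.0827 without PTKO replicate 2), and that of Mmp7 in all 6.
Slc3a1 (chr17:85028097-85028346, plus strand): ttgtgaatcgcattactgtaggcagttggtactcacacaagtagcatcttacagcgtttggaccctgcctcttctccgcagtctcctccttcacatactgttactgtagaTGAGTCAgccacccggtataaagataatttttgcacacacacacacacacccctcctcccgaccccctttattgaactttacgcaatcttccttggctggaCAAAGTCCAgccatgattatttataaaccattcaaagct
Aadat (chr8:60505874-60506123, plus strand): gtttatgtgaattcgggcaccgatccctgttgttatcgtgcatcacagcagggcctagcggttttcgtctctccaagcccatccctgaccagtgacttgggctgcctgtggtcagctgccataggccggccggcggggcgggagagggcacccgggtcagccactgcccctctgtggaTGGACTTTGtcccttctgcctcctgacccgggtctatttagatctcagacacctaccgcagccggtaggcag
Mmp7 (chr9:7691840-7692089, plus strand): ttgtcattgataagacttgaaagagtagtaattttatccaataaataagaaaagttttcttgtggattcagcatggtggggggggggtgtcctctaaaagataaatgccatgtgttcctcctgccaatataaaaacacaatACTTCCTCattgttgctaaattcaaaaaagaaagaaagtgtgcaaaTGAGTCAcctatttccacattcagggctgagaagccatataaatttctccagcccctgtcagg
C1qc (chr4:136892915-136893164, minus strand): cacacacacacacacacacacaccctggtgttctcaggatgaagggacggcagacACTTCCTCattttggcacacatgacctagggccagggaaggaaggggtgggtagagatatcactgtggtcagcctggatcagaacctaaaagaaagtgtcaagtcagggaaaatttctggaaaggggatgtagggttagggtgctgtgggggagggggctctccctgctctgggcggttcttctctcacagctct

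Injury genes were high in both genotypes at the end of AAI, and few differed. Of 27 tubular injury genes 5 were lower in PTKO and 0 higher, with a median of -0.38, a share above the 8.0% of all genes, and 11 were lower on the 6 libraries alone. Havcr1, the injury receptor KIM-1, was at 545, 443 and 455 CPM in fl/fl against 582, 841 and 547 CPM in PTKO. Each PTKO library was above each fl/fl library, with replicate 3 of PTKO level with the highest fl/fl library, but the difference of 0.43 ± 0.33 did not pass (95% interval -0.28 to 1.13, adjusted p = 0.412). Lcn2, the secreted injury marker NGAL, was at 679, 899.6 and 767 CPM in fl/fl against 341, 351 and 285 CPM in PTKO (-1.26 ± 0.33, adjusted p = 0.0217), with no overlap, and its call held in 2 of 6 leave-outs (adjusted p = 0.0831 without fl/fl replicate 3). Anxa1, an anti-inflammatory annexin, was at 137, 201 and 225 CPM in fl/fl against 97.6, 67.8 and 65.7 CPM in PTKO (-1.26 ± 0.23, adjusted p = 0.00434), and was the one injury gene called in all 6. Vim, the intermediate filament of dedifferentiated tubule and stromal cells, was at 759, 807 and 1122 CPM in fl/fl against 522, 329.9 and 403 CPM in PTKO (-1.10 ± 0.25, adjusted p = 0.0117), and Timp1, a metalloprotease inhibitor, at 132, 162 and 188 CPM in fl/fl against 65.2, 41.5 and 45.9 CPM in PTKO (-1.65 ± 0.35, adjusted p = 0.009099). Each of these 2 calls held in 4 of 6 (adjusted p = 0.0743 without fl/fl replicate 3, and adjusted p = 0.0569 without PTKO replicate 2).

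The p53 response, DNA repair and cell cycle lists had few calls by number, where 6.22% of all genes were higher and 8.0% lower. Of 26 p53 targets 1 was higher and 3 were lower (median -0.04, above 0 under both other scalings), and of 31 DNA repair genes 1 was lower (-0.11). Cdkn1a, the p53 target that encodes the cell cycle inhibitor p21, was at 447, 377 and 516 CPM in fl/fl against 399.9, 453 and 404 CPM in PTKO, with overlapping groups (-0.08 ± 0.22, 95% interval -0.54 to 0.38, adjusted p = 0.834). The p53 target with the smallest adjusted p, Rrm2b, was higher (0.45, limma adjusted p = 0.0173, held in 3 of 6 leave-outs). The pro-apoptotic targets Bax (-0.41 ± 0.11, adjusted p = 0.0258) and Bbc3 (-0.60 ± 0.15, adjusted p = 0.0199) were lower, with calls held in 2 and 3 of 6 leave-outs (adjusted p = 0.149 without fl/fl replicate 3, and adjusted p = 0.115 without fl/fl replicate 3). The remaining lower target was Apaf1 (-0.47, limma adjusted p = 0.0444, held in 1 of 6). The p53 counts are not read as a result about the list. Of 34 cell cycle genes all 34 lay below 0 with a median of -0.36, yet 1 passed (5 on the 6 libraries alone), Mcm6 of the replication helicase (-0.43 ± 0.13, adjusted p = 0.03598, held in 2 of 6, adjusted p = 0.155 without PTKO replicate 2). Without overlap between libraries 16 of the 34 cell cycle genes were lower, as were 9 of the 31 DNA repair genes and 4 of the 26 p53 targets, where 19.3% of all genes were. The cell cycle and DNA repair shares were above that background. Among 21 failed-repair markers 2 were higher, Itgb8 (0.86 ± 0.23, adjusted p = 0.0249) and Ptgds (1.36 ± 0.30, adjusted p = 0.00976), and 3 were lower. Itgb8 encodes an integrin that activates TGF-beta and Ptgds a prostaglandin synthase, and their calls held in 3 and 4 of 6 (adjusted p = 0.148 without fl/fl replicate 3, and adjusted p = 0.0659 without PTKO replicate 2). The Ptgds difference exceeded that under DMSO by 0.31, which did not pass (limma interaction adjusted p = 0.739). The estimate under DMSO was thus also in the higher direction, but no failed-repair marker was called there. Over the 10 lists of regulators, injury, stress and signalling, 11 of 239 genes were higher and 24 lower. Without fl/fl replicates 1, 2 and 3 and PTKO replicates 1, 2 and 3 in turn, 20, 7, 2, 22, 2 and 4 of the 24 lower genes stayed called. The higher genes that stayed numbered 9, 8, 4, 10, 3 and 4 of 11 in the same order.

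**Figure D4:**
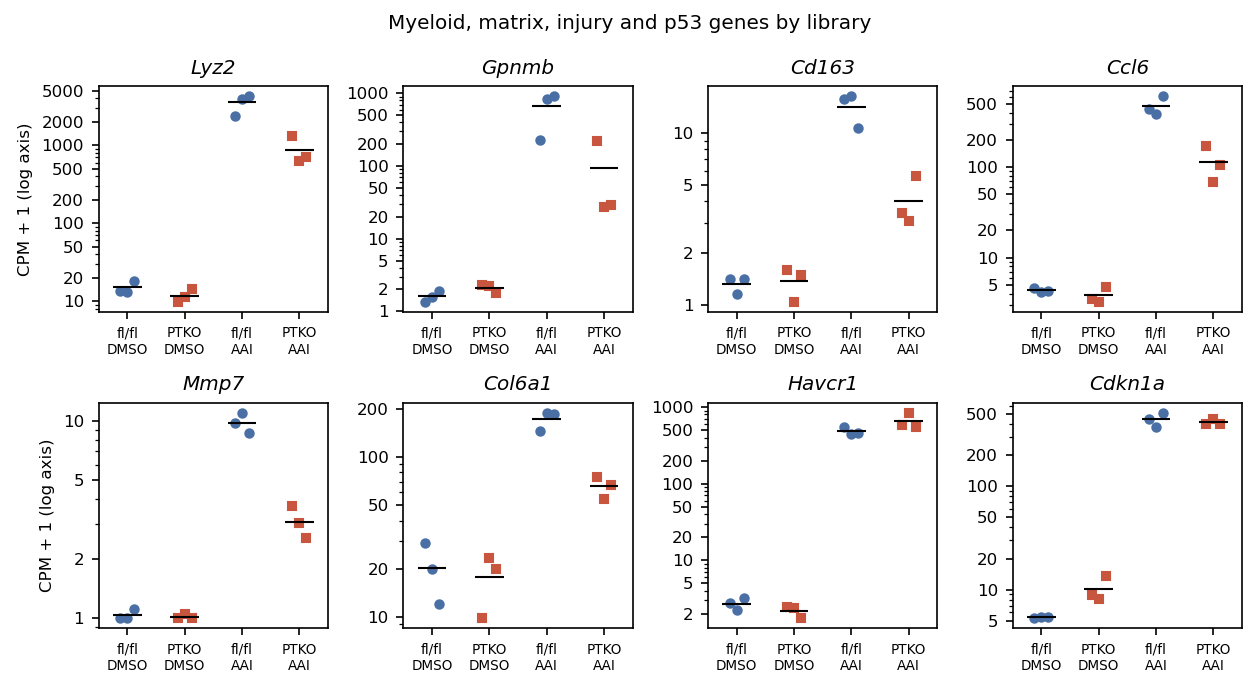
CPM + 1 (log axis, one scale per gene) of 8 myeloid, matrix, injury and p53 genes in each DMSO and each 3-week AAI library of fl/fl (circles) and PTKO (squares), with the group mean as a line. The PTKO libraries lie below fl/fl after AAI for Lyz2, Gpnmb, Cd163, Ccl6, Mmp7 and Col6a1, slightly above for Havcr1 and among them for Cdkn1a.

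Macrophage genes showed the largest share of lower calls among the lists. Of 24 macrophage and monocyte markers 19 were lower and 0 higher, with a median of -1.35. Their mean log2 level was 6.99, 7.63 and 7.56 in fl/fl and 6.62, 5.69 and 5.93 in PTKO, without overlap, and PTKO replicate 1 was nearest to fl/fl. Their summed level ran over 6725 to 11563 CPM in fl/fl and 2362 to 4739 CPM in PTKO. The median rise from DMSO to AAI was 5.23 in fl/fl and 3.98 in PTKO, so macrophage genes rose in both genotypes. Of the markers, 5 were called in all 6 leave-outs.

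Lyz2, the lysozyme of myeloid cells (chromosome 10, 117277331 to 117282321, minus strand), whose reads can be shared with its copy Lyz1, was at 2384, 3963 and 4241 CPM in fl/fl against 1302, 625 and 697 CPM in PTKO (-2.05 ± 0.36, adjusted p = 0.00373), 4.03-fold lower by the group means. Cd163, the hemoglobin scavenger receptor of resident and repair-phase macrophages (chromosome 6, 124304656 to 124330527, plus strand), was at 14.6, 15.3 and 9.597 CPM in fl/fl against 2.41, 2.06 and 4.58 CPM in PTKO (-1.84 ± 0.25, adjusted p = 0.001501). Mrc1, the mannose receptor, was at 278, 286 and 238 CPM in fl/fl against 139, 90.8 and 139.9 CPM in PTKO (-1.14 ± 0.19, adjusted p = 0.00282). Trem2, a lipid receptor of phagocytes, was at 39.2, 73.4 and 93.9 CPM in fl/fl against 26.2, 12.3 and 13.004 CPM in PTKO (-1.94 ± 0.33, adjusted p = 0.002904). The genotypes did not overlap in any of the 4, and all 4 were called in all 6 leave-outs. Gpnmb, a lysosomal glycoprotein of lipid-laden macrophages, had a wide spread, at 225, 847 and 913 CPM in fl/fl against 223, 25.9 and 27.95 CPM in PTKO (-3.32 ± 0.69, adjusted p = 0.00769). Replicate 1 of both genotypes stood at nearly the same level, the other fl/fl libraries far above it and the other PTKO libraries far below. The Gpnmb call held in 4 of 6 (adjusted p = 0.0547 without PTKO replicate 2). Mmp12, the macrophage elastase, was at 568, 1124 and 1306 CPM in fl/fl against 348, 48.8 and 77.3 CPM in PTKO (-3.09 ± 0.63, adjusted p = 0.00741), held in 5 of 6 (adjusted p = 0.0531 without PTKO replicate 2). Arg1, the arginase of alternatively activated macrophages, was at 26.2, 46.9 and 36.1 CPM in fl/fl against 6.97, 0.478 and 0.7697 CPM in PTKO (-3.73 ± 0.55, adjusted p = 0.001698), the most negative difference of the called genes, and was called in all 6. The lectin receptors Clec4d (-2.46 ± 0.42, adjusted p = 0.00353) and Clec4e (-2.20 ± 0.44, adjusted p = 0.00665), which sense microbial and dying-cell lipids, were also called in all 6, as was Rnase2a, an eosinophil-type ribonuclease (-2.75 ± 0.51, adjusted p = 0.00484).

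Lysosomal and lipid-handling genes followed, with 14 of 22 lower and 0 higher (median -0.59). Apoe, the lipoprotein of lipid efflux, was at 2039, 3818 and 3710.5 CPM in fl/fl against 1804, 952 and 1079 CPM in PTKO (-1.32 ± 0.26, adjusted p = 0.00656), and Lgals3, the lectin galectin-3, at 397, 529 and 720.2 CPM in fl/fl against 322, 183 and 171 CPM in PTKO (-1.30 ± 0.25, adjusted p = 0.00591). The lowest fl/fl library of each, replicate 1, was close to the highest PTKO library, also replicate 1. Among complement genes 7 of 19 were lower and 0 higher (-0.60). Cfp, properdin, was at 159, 184 and 225 CPM in fl/fl against 87.6, 51.7 and 72.8 CPM in PTKO (-1.43 ± 0.28, adjusted p = 0.00663), and these 3 genes were called in all 6 leave-outs. C3, the central component that tubule cells also make, was at 2913, 2859 and 2805 CPM in fl/fl against 1826, 1405 and 1772 CPM in PTKO (-0.79 ± 0.25, adjusted p = 0.0457), held in 0 of 6 leave-outs (adjusted p = 0.187 without PTKO replicate 2).

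Some genes of cytokines, chemokines and their receptors were lower as well, and a part of fewer myeloid cells in this was not tested. Of 26 cytokines and receptors 13 were lower and 0 higher (median -0.75), and of 34 chemokine genes 9 were lower and 1 was higher (-0.78), with 8 and 6 lower on the 6 libraries alone. Of the 13 cytokine and receptor calls, 12, 6, 1, 13, 1 and 5 stayed when fl/fl replicates 1, 2 and 3 and PTKO replicates 1, 2 and 3 were left out singly, and of the chemokine calls in both directions 10, 5, 4, 10, 4 and 6. The myeloid chemokine Ccl6 was at 443, 386 and 606 CPM in fl/fl against 169.7, 67.1 and 105 CPM in PTKO (-2.13 ± 0.31, adjusted p = 0.00158), and Ccl9 at 262, 261 and 369 CPM in fl/fl against 111, 56.4 and 72.6 CPM in PTKO (-1.92 ± 0.30, adjusted p = 0.00217). Ccr1, the receptor for both, was at 76.1, 76.1 and 93.3 CPM in fl/fl against 39.1, 21.8 and 24.6 CPM in PTKO (-1.53 ± 0.28, adjusted p = 0.00492). PTKO lay below fl/fl in every library of the ligands and the receptor, and each was called in all 6 leave-outs. Il6ra, the interleukin-6 receptor, was at 33.3, 35.1 and 38.95 CPM in fl/fl against 22.7, 13.4 and 20.3 CPM in PTKO (-0.92 ± 0.18, adjusted p = 0.00684), called in all 6. Csf2rb, the shared receptor chain for GM-CSF, was at 92.3, 126 and 171 CPM in fl/fl against 66.5, 29.2 and 40.2 CPM in PTKO (-1.53 ± 0.33, adjusted p = 0.00912), held in 4 of 6 (adjusted p = 0.0632 without PTKO replicate 2). Of 19 NF-kappaB factors and targets 3 were lower and 0 higher (-0.34), with 0 of these calls left without fl/fl replicate 3 or PTKO replicate 2. Among neutrophil markers 3 of 7 tested were lower, at low levels such as 2.202, 11.1 and 1.96 CPM in fl/fl against 0.712, 0.294 and 0.851 CPM in PTKO for S100a8 (-1.60 ± 0.41, adjusted p = 0.0184, held in 4 of 6, adjusted p = 0.0925 without PTKO replicate 2). Over the 8 myeloid and inflammatory lists 65 of 152 genes were lower and 1 higher. Of the 65, 63, 38, 21, 64, 15 and 35 stayed called when fl/fl replicates 1, 2 and 3 and PTKO replicates 1, 2 and 3 were left out singly, and the 6 libraries alone gave 48 lower.

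Cxcl11, a chemokine for T cells that interferon induces, was the higher chemokine. It was at 0.858, 0.703 and 1.35 CPM in fl/fl against 29.4, 13.1 and 5.55 CPM in PTKO (2.85 ± 0.39, adjusted p = 0.001501), with PTKO replicate 1 the highest, and was called in all 6 leave-outs. Interferon-stimulated genes had 1 of 28 higher, 0 lower and a median of 0.06, with mean log2 levels of 5.29, 5.12 and 5.28 in fl/fl and 5.94, 4.93 and 4.96 in PTKO. The higher one, Ifit3, which binds foreign RNA, was at 56.1, 65.98 and 57.5 CPM in fl/fl against 149.98, 139 and 95.8 CPM in PTKO (1.07 ± 0.19, adjusted p = 0.00454) and was called in all 6. Lymphoid and antigen presentation genes overlapped between genotypes. Of 16 T and NK cell markers 1 was lower and 0 higher (median -0.18), and of 19 antigen presentation genes 1 was lower and 0 higher (-0.21). The mean log2 level of the T and NK markers was 3.10, 3.10 and 3.89 in fl/fl and 4.02, 2.54 and 2.96 in PTKO, and that of antigen presentation 8.08, 7.96 and 8.65 in fl/fl and 8.63, 7.42 and 7.52 in PTKO. PTKO replicate 1 was the highest or close to the highest of all 6 in both, and its PTKO partners were the lowest. Of 7 B and plasma cell markers 3 were lower (-0.94). Their mean log2 level was 3.09, 4.58 and 4.50 in fl/fl and 3.18, 3.04 and 3.11 in PTKO. Here fl/fl replicate 1 lay with the PTKO libraries, and PTKO replicate 1 was close to its partners. Over the 5 lists of lymphoid cells, antigen presentation, interferon and granulocytes, 7 of 74 genes were lower (9.46%) and 1 higher (1.35%). Over all genes 8.0% were lower and 6.22% higher, so the lower share was near that background. Without fl/fl replicates 1, 2 and 3 and PTKO replicates 1, 2 and 3 in turn, 7, 3, 0, 6, 0 and 2 of the 7 lower genes stayed called. The part of the higher T and NK cell and antigen presentation levels of PTKO replicate 1 in the overlaps of those lists was not tested.

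**Figure D5:**
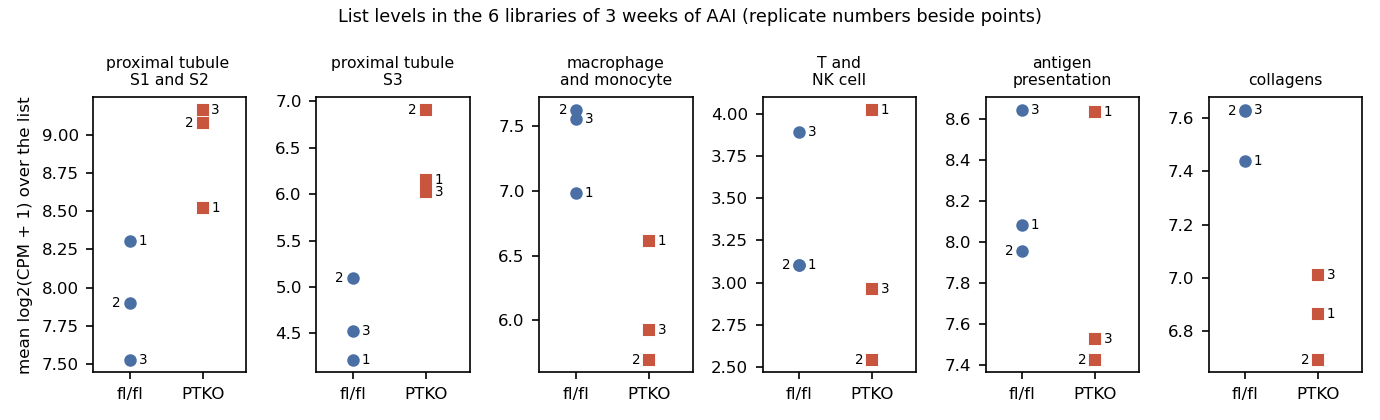
Mean log2(CPM + 1) over the genes of 6 lists in each of the 6 compared libraries, fl/fl (circles) and PTKO (squares), with replicate numbers beside the points and a scale per list. The genotypes do not overlap for the tubule, macrophage and collagen lists, while PTKO replicate 1 lies with fl/fl replicate 3 for T and NK cell markers and antigen presentation.

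Some matrix genes were lower in PTKO. Of 21 collagens 6 were lower (median -0.79), of 29 matrix glycoproteins and crosslinkers 10 (-0.77), and of 22 matrix proteases and inhibitors 10 (-0.70), and none of the 3 lists had a higher gene. Of the 6 collagen calls, 6, 1, 0, 5, 0 and 3 stayed without fl/fl replicates 1, 2 and 3 and PTKO replicates 1, 2 and 3 in turn. Of the 10 calls in glycoproteins and crosslinkers 10, 5, 2, 10, 0 and 6 stayed, and of the 10 in proteases and inhibitors 8, 6, 3, 8, 2 and 5. No collagen call was left without fl/fl replicate 3, and no collagen, glycoprotein or crosslinker call without PTKO replicate 2. On the 6 libraries alone 15, 18 and 10 were lower. Without overlap between libraries, 16, 21 and 14 genes were lower, where 19.3% of all genes were. Col1a1, the main fibrillar collagen, was at 701, 845 and 957 CPM in fl/fl against 425, 315 and 379 CPM in PTKO. Its groups stood well apart, but in the fit over all libraries the difference of -1.16 ± 0.50 did not pass (adjusted p = 0.132), while the 6 libraries alone gave adjusted p = 0.0121. Col6a1, a microfibrillar collagen, was at 145, 188 and 185 CPM in fl/fl against 74.1, 53.8 and 65.4 CPM in PTKO (-1.41 ± 0.35, adjusted p = 0.0173), held in 2 of 6 leave-outs (adjusted p = 0.0886 without PTKO replicate 2). Lox, which cross-links collagen, was at 125, 154 and 127 CPM in fl/fl against 60.01, 48.9 and 80.4 CPM in PTKO (-1.11 ± 0.24, adjusted p = 0.00871), held in 5 of 6 (adjusted p = 0.0601 without PTKO replicate 2). The provisional matrix proteoglycan Vcan was at 26.6, 24.2 and 24.2 CPM in fl/fl against 13.8, 11.2 and 15.3 CPM in PTKO (-0.86 ± 0.18, adjusted p = 0.00766), held in 5 of 6 (adjusted p = 0.0547 without PTKO replicate 2).

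Mmp7, the metalloprotease matrilysin made by injured tubules (chromosome 9, 7692090 to 7699585, plus strand), was at 8.696, 9.99 and 7.68 CPM in fl/fl against 2.69, 2.02 and 1.54 CPM in PTKO (-1.68 ± 0.23, adjusted p = 0.001501), against 0.0352 ± 0.06102 CPM in fl/fl and 0.01604 ± 0.0278 CPM in PTKO under DMSO. All fl/fl libraries stood well above all PTKO libraries, and the call held in all 6 leave-outs. Of 14 fibroblast markers 2 were lower (-0.63), 6 on the 6 libraries alone, and of 13 pericyte, smooth muscle and mesangial markers 2 (-0.37). Over all genes 8.0% were lower and 6.22% higher, and these small counts are not read as a result about the 2 lists. Tagln, a contractile protein of smooth muscle and myofibroblasts, was at 315, 248 and 296 CPM in fl/fl against 132, 143 and 146 CPM in PTKO (-1.02 ± 0.23, adjusted p = 0.0111), held in 4 of 6 (adjusted p = 0.0584 without fl/fl replicate 3). Acta2, smooth muscle actin, was at 267, 216 and 257 CPM in fl/fl against 131, 129 and 178 CPM in PTKO (-0.76 ± 0.24, adjusted p = 0.0487), held in 0 of 6 (adjusted p = 0.179 without PTKO replicate 2). Over the 6 matrix, stromal and coagulation lists 35 of 115 genes were lower and 1 higher. In the fits that left out fl/fl replicates 1, 2 and 3 and PTKO replicates 1, 2 and 3 singly, 32, 18, 9, 31, 8 and 20 of the 35 stayed called, and the 6 libraries alone gave 54 lower and 2 higher.

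Lists of other cells of the cortex had few calls. Of 11 distal convoluted tubule and 18 endothelial markers none passed in limma (medians 0.17 and -0.12). Of 12 thick ascending limb markers 1 was higher, Egf, the growth factor precursor that falls in injured kidneys, at 41.9, 183 and 56.4 CPM in fl/fl against 246, 387 and 235 CPM in PTKO (1.88 ± 0.46, adjusted p = 0.0165, held in 4 of 6 leave-outs, adjusted p = 0.0911 without fl/fl replicate 3). All 12 of that list lay above 0, with a median of 0.62 and overlapping libraries, at 5.92, 6.72 and 6.07 in fl/fl and 6.92, 7.22 and 6.59 in PTKO. Of 14 intercalated cell markers Slc4a1, the chloride-bicarbonate exchanger of acid-secreting cells and red cells, was higher at 13.3, 24.1 and 15.1 CPM in fl/fl against 52.8, 48.1 and 46.1 CPM in PTKO (1.48 ± 0.22, adjusted p = 0.00181) and was called in all 6. Atp6v0d2, a proton pump subunit that macrophages also carry, was the lower gene of that list (-0.59 ± 0.17, adjusted p = 0.02897, held in 2 of 6, adjusted p = 0.1298 without fl/fl replicate 3). Of 12 principal cell markers 1 was lower, St6gal1, a sialyltransferase that immune and liver cells also express (-0.74 ± 0.12, adjusted p = 0.00213, called in all 6). Of 14 podocyte markers 1 was higher and 2 were lower, and among them Enpep is also made in proximal tubule brush border (0.75 ± 0.17, adjusted p = 0.0109) and Ptpro in leukocytes (-0.46 ± 0.13, adjusted p = 0.0316). Their calls held in 4 and 2 of 6 (adjusted p = 0.0725 without fl/fl replicate 3, and adjusted p = 0.174 without PTKO replicate 2). Over these 6 cell types 3 of 81 genes were higher (3.70%) and 4 lower (4.94%), below the 6.22% and 8.0% of all genes. Of the higher genes 3, 3, 1, 3, 1 and 3 stayed called without fl/fl replicates 1, 2 and 3 and PTKO replicates 1, 2 and 3 in turn. Of the lower genes 4, 2, 1, 4, 1 and 2 stayed in the same order.

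The largest positive difference of the called genes was in Serpina6, which encodes the glucocorticoid carrier corticosteroid-binding globulin (chromosome 12, 103646630 to 103657212, minus strand). It was at 2.84, 2.67 and 2.705 CPM in fl/fl against 73.9, 65.2 and 36.99 CPM in PTKO (3.94 ± 0.32, adjusted p = 4.66e-06), 21.4-fold higher by the group means, and was called in all 6 leave-outs. Under DMSO it was at 0.908, 0 and 0.317 CPM in fl/fl against 0, 0 and 0 CPM in PTKO, that is, at or near 0 in both genotypes. Gbp11, a guanylate-binding protein with near copies beside it, was at 0.821, 0.281 and 0.436 CPM in fl/fl against 23.4, 5.59 and 4.74 CPM in PTKO (2.70 ± 0.45, adjusted p = 0.00281), with PTKO replicate 1 the highest. Akr1c14, a hydroxysteroid dehydrogenase, was at 4.14, 14.9 and 5.23 CPM in fl/fl against 46.4, 145 and 67.5 CPM in PTKO (3.29 ± 0.61, adjusted p = 0.00484), and Dnase1, the secreted nuclease that kidney and urine are rich in, at 50.2, 43.6 and 66.5 CPM in fl/fl against 226, 307 and 433 CPM in PTKO (2.54 ± 0.40, adjusted p = 0.00205). Both were called in all 6 leave-outs and had no overlap. Mep1b, the brush border protease meprin beta, was at 2.02, 17.6 and 6.54 CPM in fl/fl against 61.9, 109 and 36.7 CPM in PTKO (3.09 ± 0.65, adjusted p = 0.00832), held in 5 of 6 (adjusted p = 0.0567 without PTKO replicate 2).

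A few genes differed by genotype under every treatment. In the DMSO libraries 28 genes were higher (0.192%) and 14 lower (0.0959%), and 26 genes, 19 higher and 7 lower, passed in the same direction under DMSO, at 3 weeks and at 6 weeks. Among them Hprt, the purine salvage enzyme, was at 114, 109 and 87.1 CPM in fl/fl against 10.3, 13.2 and 10.05 CPM in PTKO (-3.10 ± 0.17, adjusted p = 8.82e-08) and differed by -1.62 under DMSO, and Eno1b, a retrogene copy of an enolase whose reads may be shared with its parent gene, was at 0.0746, 0.141 and 0.174 CPM in fl/fl against 5.98, 7.31 and 8.14 CPM in PTKO (2.84 ± 0.18, adjusted p = 3.54e-07) and differed by 2.72. Nnt, a mitochondrial transhydrogenase known to differ between C57BL/6 substrains, and Wdfy1, an endosomal adaptor, were singled out after their values were seen (1.11 and 1.601 at 3 weeks, 0.84 and 1.82 under DMSO). The direction of these genes was thus the same without AAI.

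The genotype difference was set beside those of the other treatments, which use none of the same libraries. At 6 weeks 477 genes were higher (3.27%) and 1721 lower (11.8%). Of the 908 genes higher at 3 weeks 240 were also higher at 6 weeks, which is 26.4% of the former and 50.3% of the 477. Of the 1169 lower genes 613 were also lower at 6 weeks, 52.4% of the former and 35.6% of the 1721. The DMSO libraries shared 20 of the higher and 7 of the lower genes. S3 markers had a median difference of -0.11 under DMSO, 1.86 at 3 weeks and 0.12 at 6 weeks, S1 and S2 markers 0.09, 0.86 and 0.62, macrophage markers -0.004, -1.35 and -1.02, and collagens 0.10, -0.79 and -1.04. The S3 median at 6 weeks was thus near 0, and the other 3 medians had the same sign as at 3 weeks. Whether the 3-week and 6-week differences differ was not tested. The counts in both other contrasts moved with single libraries. The genotype difference at 6 weeks had 441, 3765 and 841 calls without fl/fl replicates 1, 2 and 3 and 1107, 1915 and 1700 without PTKO replicates 1, 2 and 3 of that time. The genotype difference under DMSO had 26, 26 and 53 calls without fl/fl replicates and 46, 37 and 28 without PTKO replicates 1, 2 and 3, against 42 with all.

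A genotype difference at 3 weeks that differs from the one under DMSO is an interaction of genotype and AAI. It passed for 24 genes in the higher direction (0.164%) and 17 in the lower direction (0.116%), and 2711 genes had an unadjusted p under 0.05. edgeR called 18 and DESeq2 588. Without fl/fl replicates 1, 2 and 3 of the 3-week group 332, 35 and 7 genes passed, and without the PTKO replicates 427, 7 and 12. Without the DMSO replicates 1, 2 and 3 the counts were 6, 6 and 11 for fl/fl and 9, 26 and 6 for PTKO, and without the 6-week replicates, which enter only the estimate of spread, 127, 432 and 44 for fl/fl and 11, 25 and 212 for PTKO. Most 3-week differences named here were not shown to differ from those under DMSO. Among the named genes the interaction passed for Serpina6 (4.38 ± 0.45, adjusted p = 0.000554), Slc5a8 (3.08 ± 0.59, adjusted p = 0.04498), Slc2a5 (1.82 ± 0.24, adjusted p = 0.00642), Nqo1 (1.46 ± 0.26, adjusted p = 0.04201), Cd163 (-1.88 ± 0.36, adjusted p = 0.04498), Mmp7 (-1.65 ± 0.33, adjusted p = 0.0482), Hprt (-1.48 ± 0.24, adjusted p = 0.0277) and Lbp, which encodes lipopolysaccharide-binding protein (-1.21 ± 0.24, adjusted p = 0.0482). Between DMSO and AAI the change of Slc5a8 was -4.33 in fl/fl and -1.25 in PTKO, that of Slc2a5 -2.17 and -0.35, and that of Nqo1 -1.53 and -0.07, a smaller fall in PTKO for each. The change of Cd163 was 3.39 in fl/fl and 1.52 in PTKO, that of Mmp7 3.24 and 1.59, and that of Lbp 3.80 and 2.59, a smaller rise in PTKO for each. None of these changes from DMSO was rescaled for library composition.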

How the data were processed

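The authors deposited a table of CPM values for 24062 gene symbols in 18 kidney cortex libraries. The submitters' processing notes name bcl2fastq 2.19, kallisto and mm10. Every one of the 433116 values came out as a whole read count with a tolerance of 0.01 read, and these reads were used by edgeR 4.0.16 and DESeq2 1.42.0 as alternatives. CPM moves with library composition, so median-of-ratios and quantile scaling were also tried. Groups come from sample titles. limma 3.58.1 (R 4.3.3) was fitted to log2(CPM + 1) of the 14604 genes reaching 1 CPM in 3 or more libraries, with 6 group means, a variance trend and 12 residual degrees of freedom, and was tested on simulated data. Tests were two-sided, with Benjamini-Hochberg adjustment. Confidence intervals are at 95%.

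The comparison, the 53 gene lists, some of which overlap, and the tests were chosen with earlier results of these data known. The rule for named genes took Klf6, the 15 higher and 15 lower genes with the largest difference (adjusted p under 0.05, 5 CPM or more in the higher group, no overlap), up to 4 members per list by adjusted p or else the most abundant, and fixed examples. Not every such gene is printed, and some are not reported here. Nnt, Wdfy1, Slc2a5, Aadat, Slc3a1 and C1qc were added after their values were seen, as was the alternative with library weights. Positions come from GENCODE M21 and were matched for 13920 tested genes.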

Additional observations from a re-analysis of the deposited data

Results flagged for a closer look

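In 8 of the named genes the genotype difference at 3 weeks of AAI differed from that under DMSO by the interaction test in limma (n = 3 libraries per group). It was larger in the higher direction for Serpina6 (interaction 4.38 on the log2 scale), Slc5a8 (3.08), Slc2a5 (1.82) and Nqo1 (1.46). It was larger in the lower direction for Cd163 (-1.88), Mmp7 (-1.65), Hprt (-1.48) and Lbp (-1.21). Serpina6 had 0 reads in the 3 PTKO libraries under DMSO, so its interaction value depends on the pseudocount. Hprt also differed under DMSO, at 70.96, 68.4 and 74.2 CPM in fl/fl against 27.4, 26.6 and 15.7 CPM in PTKO, and its interaction is a further gap on top of that one. Slc2a5 was chosen after its values were seen.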

How the results depend on the processing

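Against 2077 genes, the genotype difference at 3 weeks of AAI gave 3454 with library weights, 470 with a fold minimum of 1 and 360 to 2517 with 1 library left out. Counts under the other alternatives were within 1.5 times. The genotype difference under DMSO (42) gave 18 on its own libraries, 113 in DESeq2, 180 with weights, 24 with the fold minimum and 26 to 53 with 1 library left out. The genotype difference at 6 weeks (2198) gave 163 on its own libraries, 5271 with weights, 489 with the fold minimum and 441 to 3765 with 1 left out. The genotype by AAI interaction at 3 weeks (41) gave 7 with no filter, 64 with the filter at 5 CPM, 88 with quantile normalization, 581 on its own libraries, 12 with no variance trend, 18 in edgeR, 588 in DESeq2, 1729 with weights and 6 to 427 with 1 left out. AAI-raised genes called lower (692 of 3029, 22.8%) numbered 323 of 902 (35.8%) when chosen at 2 on the log2 scale. With 1 library left out they numbered 112 to 852 of 3029. AAI-lowered genes called higher (230 of 514, 44.7%) numbered 31 of 85 (36.5%) when chosen at 2 and 432 of 1086 (39.8%) with median-of-ratios scaling. With 1 library left out they numbered 54 to 263 of 514. The cutoff and the scaling thus changed the size of these sets. The cause of the changes in counts was otherwise not tested.

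Signs flipped for genes near 0. Klf6 was at 0.0025 in the permutation test and 0.003 in limma under median-of-ratios scaling, 0.031 in edgeR, 0.006 in DESeq2 and -0.137 to 0.079 with 1 library left out. Bckdhb was at 0.013 with quantile normalization and -0.142 to 0.079, Cdkn1a at 3 weeks at 0.057 with weights and -0.199 to 0.027, and the lipase gene Pnpla2 at 0.001 with median-of-ratios scaling, 0.023 in edgeR, 0.002 with weights and -0.082 to 0.023. No other named gene changed sign in the alternatives run.

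With the replicate number as a block the genotype difference at 3 weeks of AAI gave 1816 genes and the interaction 74. Replicate numbers did not pair the libraries, since the deviations of same-numbered libraries had correlations of -0.37, 0.20 and -0.13 across genes. Precision is limited by 3 libraries per group.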

Other observations

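Coagulation and acute-phase genes, of which 22 were tested, held 6 lower and 1 higher genes, where 8.0% of all genes were lower and 6.22% higher. F10, coagulation factor X, was at 45.8, 37.3 and 66.04 CPM in fl/fl against 18.2, 4.19 and 8.43 CPM in PTKO (-2.33 ± 0.41, adjusted p = 0.00373), and F13a1, the fibrin cross-linking factor of macrophages and platelets, at 58.3, 82.6 and 51.5 CPM in fl/fl against 14.7, 20.1 and 26.6 CPM in PTKO (-1.61 ± 0.29, adjusted p = 0.00414). Lbp was at 57.4, 77.8 and 80.4 CPM in fl/fl against 37.3, 28.3 and 30.5 CPM in PTKO (-1.14 ± 0.17, adjusted p = 0.00171). In these 3 genes every PTKO library lay below every fl/fl library, and each was called in all 6 leave-outs. F7, coagulation factor VII, was at 9.48, 13.6 and 18.5 CPM in fl/fl against 4.12, 0.441 and 1.66 CPM in PTKO (-2.42 ± 0.35, adjusted p = 0.00158), again called in all 6.

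Cell death genes of the necroptosis and pyroptosis type had 4 of 16 lower and 0 higher (median -0.46), where 8.0% of all genes were lower and 6.22% higher. Casp4, the caspase that senses lipopolysaccharide in the cytosol, was at 14.7, 20.1 and 21.5 CPM in fl/fl against 12.2, 7.39 and 7.41 CPM in PTKO (-0.998 ± 0.20, adjusted p = 0.00684), called in all 6 leave-outs. Beside the same shares of all genes, stress response genes had 1 of 22 higher and 3 lower, and these counts are not read as a result about the list. The higher gene was Shmt2, the mitochondrial serine hydroxymethyltransferase, at 80.4, 73.9 and 75.5 CPM in fl/fl against 112, 145 and 163 CPM in PTKO (0.85 ± 0.13, adjusted p = 0.00176), called in all 6. TGF-beta and BMP genes had 3 of 25 higher and 2 lower, counts near the shares of all genes and likewise not read as a result about the list. Bmp4 was at 32.8, 36.95 and 33.9 CPM in fl/fl against 56.01, 53.4 and 49.9 CPM in PTKO (0.61 ± 0.13, adjusted p = 0.00796), called in all 6, and Tgfb1 at 135, 167 and 229 CPM in fl/fl against 124, 81.4 and 92.4 CPM in PTKO (-0.82 ± 0.22, adjusted p = 0.0258), a call held in 2 of 6 (adjusted p = 0.152 without fl/fl replicate 3). Cholesterol synthesis and uptake had 1 of 21 higher and 1 lower (median -0.25), below the shares of all genes.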
